A study of Mus musculus with 2 samples.

Results

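The respiratory chain genes of mouse tumour immune cells are described here from droplet single-cell RNA sequencing. The genes are those whose symbols name a subunit of complex I (Nduf a, b, c, s and v genes), complex II (Sdh a to d), complex III (Uqcr), complex IV (Cox4 to Cox8) or complex V (Atp5), together with the protein-coding genes of the mitochondrial genome (mt-Nd, mt-Co, mt-Cytb, mt-Atp). Assembly factors and pseudogenes were left out. The rule found 97 of 32285 genes, of which 84 are nuclear (37 of complex I, 4 of complex II, 8 of complex III, 18 of complex IV and 17 of complex V) and 13 are mitochondrial-encoded. Of the 84 nuclear genes, 81 had at least 100 UMIs (unique molecular identifiers, 1 per captured mRNA molecule) over both libraries, Cox8b had 1, and Cox7b2 and Cox8c had 0.

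The motolimod group was tumours of mice given motolimod, a synthetic compound that activates the innate receptor TLR8, and the control group was tumours labelled as control. The labels name 5 mice per group and 1 library per group. They state neither whether the mice were pooled nor the tumour model, strain, age, dose or time, and they do not say what the control mice received. Cells of both groups were enriched on beads for the pan-leukocyte protein CD45. With 1 library per group, nothing below has a replicate check, no test between groups was possible, and intervals reflect counting error alone.

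The motolimod library held 62057685 UMIs over 10037 barcodes and the control library 127609378 UMIs over 8099 barcodes. Kept were barcodes reaching 300 genes and 800 UMIs whose mitochondrial share did not exceed 10%: 9314 from motolimod tumours and 7484 from control tumours, with median UMIs of 3742.5 and 14055. The libraries shared 113 barcodes, 94 of them kept in both. Over the mitochondrial limit were 291 motolimod barcodes and 473 control barcodes, of which 77 and 104 were removed by that limit alone, so it also bounds the mitochondrial-encoded levels described here. Respiratory chain genes took 4.36% of kept UMIs in the motolimod library and 4.41% in the control library.

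The respiratory chain passes electrons from NADH (through complex I) or succinate (through complex II) to complex III and then to oxygen at complex IV, and the proton gradient built on the way drives ATP synthesis by complex V. Complexes I, III, IV and V are mosaics of proteins made from nuclear and mitochondrial genes, whereas complex II is entirely nuclear and is shared with the citric acid cycle. Mitochondrial mRNAs are cut from long transcripts of a small circular genome, and most are polyadenylated, so most can be captured in a poly(A)-primed library. Macrophages and T cells change their use of the chain with activation, while mature neutrophils are known for few mitochondria and for reliance on glycolysis.

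The mitochondrial genes lie end to end on chromosome M, and adjacent coding sequences overlap in places, which can limit how some reads are assigned. The 2 sequences shown are the longest overlaps between genes on the same strand. Only a read that lies wholly within the shared bases matches both genes alike. mt-Atp6 also shares its last base with mt-Co3, and the end of mt-Nd5 overlaps that of mt-Nd6 on the other strand. In each line the capitals mark the bases that belong to both genes, with 12 bases of flank on each side, read on the plus strand from the GENCODE M21 transcripts (mm10). The mt-Atp8 and mt-Atp6 window is chrM:7915-7981, with 43 shared bases, and the mt-Nd4l and mt-Nd4 window is chrM:10155-10185, with 7 shared bases.
mt-Atp8 and mt-Atp6: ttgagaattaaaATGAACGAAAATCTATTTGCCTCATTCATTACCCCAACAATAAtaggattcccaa
mt-Nd4l and mt-Nd4: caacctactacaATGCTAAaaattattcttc

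Several mitochondrial genes also have near-identical nuclear copies. In the GENCODE M21 transcripts, 6 of the 13 (mt-Co2, mt-Atp6, mt-Co3, mt-Nd3, mt-Nd4l and mt-Nd4) shared at least 50% of their 31-base words with a single other gene, and 2 of the 84 nuclear genes (Atp5l and Atp5h) did. None of those copies is a row of the count tables. Reads that match both places equally may have been dropped or assigned to either, in both libraries, so levels of these genes are uncertain.

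Promoters of nuclear respiratory chain genes are known for sites of NRF1, of the ETS factor GABP and of YY1. Of the 84 nuclear genes, 67 matched an entry in the RefSeq promoter table (GRCm38.p6; 250 bases before to 50 after the start, 300 in all). The palindromic NRF1 motif, searched on both strands, stood in 5 of the 67 (7.46%), against 1.07% of 27025 genes in the table. The letters CCGGAAG (ETS) stood in 17 (25.4%), against 9.93% of all genes, and AAGATGGC (YY1) in 9 (13.4%), against 3.19%. None of the 3 motifs overlaps another in the promoters shown. A match is a description of letters and not a binding site. Shown are the promoters of Atp5k and Cox7a1, which had among the highest ratios below, and of Sdhb, of the complex with the lowest. Capitals mark matches on either strand. Atp5k (chr5:108434350-108434649, minus strand) holds an NRF1 and an ETS match, Sdhb (chr4:140961021-140961320, plus strand) an ETS match, and Cox7a1 (chr7:30183921-30184220, plus strand) none of the 3.
Atp5k: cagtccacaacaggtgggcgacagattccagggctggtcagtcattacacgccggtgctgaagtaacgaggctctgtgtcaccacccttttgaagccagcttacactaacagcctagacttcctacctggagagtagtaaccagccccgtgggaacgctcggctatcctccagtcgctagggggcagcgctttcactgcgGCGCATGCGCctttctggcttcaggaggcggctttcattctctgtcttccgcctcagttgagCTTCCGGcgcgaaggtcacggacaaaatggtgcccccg
Sdhb: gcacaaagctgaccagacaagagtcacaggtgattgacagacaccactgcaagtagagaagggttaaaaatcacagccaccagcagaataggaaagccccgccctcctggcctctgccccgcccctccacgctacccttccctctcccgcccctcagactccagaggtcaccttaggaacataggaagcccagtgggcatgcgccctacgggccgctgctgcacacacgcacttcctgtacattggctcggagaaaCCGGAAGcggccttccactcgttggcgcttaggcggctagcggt
Cox7a1: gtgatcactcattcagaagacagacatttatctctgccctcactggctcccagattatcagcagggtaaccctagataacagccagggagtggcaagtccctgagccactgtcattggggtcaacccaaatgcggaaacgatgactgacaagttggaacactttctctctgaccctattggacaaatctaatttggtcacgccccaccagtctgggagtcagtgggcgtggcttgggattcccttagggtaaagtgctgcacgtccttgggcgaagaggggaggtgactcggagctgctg

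Cells were gated by marker genes, and droplets with markers of at least 2 lineages were set aside (552 of motolimod and 445 of control tumours), as were 1022 and 537 that met no gate. Types with at least 100 cells in each library were compared: macrophages (C1q genes; 3622 and 3992 cells of motolimod and control tumours), monocytes (Ly6c2, Ccr2; 780 and 667), T cells (Cd3 genes; 446 and 372) and neutrophils (S100a8, S100a9; 2635 and 532). Median UMIs per cell were 6582.5 and 16054 in macrophages, 5820 and 6991 in monocytes, 5188 and 6631.5 in T cells, and 2063 and 2103 in neutrophils. Markers that no gate used were present in all 4 types, between 61.7 and 4978 CPM (UMIs of a gene per 1000000 UMIs of the type in its library). A gate on Krt8, Krt18, Krt19 and Epcam held 64 and 631 cells, but Cldn7 was at 0 in both libraries, Cldn4 and Spint2 were at 1.68 CPM or less, Epcam was at 4.97 and 3.66, and Elf3, another epithelial marker, at 15.5 and 23.9. On these genes the epithelial label fixed for that gate did not hold, and its cells are called Krt8/Krt18-positive cells. Krt7, also fixed as a check of that gate, is not given here.

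Summed over all cells of a type, the 13 mitochondrial-encoded genes were higher in macrophages, monocytes and T cells of motolimod tumours, while the nuclear sum differed less. In macrophages the mitochondrial-encoded sum was 19862 CPM in motolimod tumours and 14530 in control tumours, a ratio of 1.37 (95% counting interval 1.36 to 1.37), but the ratio was 0.937 among macrophages in the 3 shallowest of 10 bins of UMIs per cell, which held 48.6% of motolimod and 13.1% of control macrophages. Monocytes had 13489 and 9437 (ratio 1.43, 1.41 to 1.45), and T cells 16703 and 12314 (1.36, 1.34 to 1.37). The 84 nuclear genes summed to 31028 and 31145 CPM in macrophages (ratio 0.996), 26322 and 26231 in monocytes (1.00), and 28418 and 29444 in T cells (0.965). Neutrophils ran the other way, with a mitochondrial-encoded sum of 4082 in motolimod tumours and 8574 in control tumours (ratio 0.476, 0.467 to 0.486) and a nuclear sum of 10331 and 14747 (0.701, 0.691 to 0.711). The neutrophil nuclear ratio was 1.146 without the deepest of 10 depth bins (217 and 101 cells), and above 1 in 8 of the 10. Without that bin the median log2 ratio was 0.28 for the nuclear genes, close to the 0.24 over all genes tested.

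**Figure D1:**
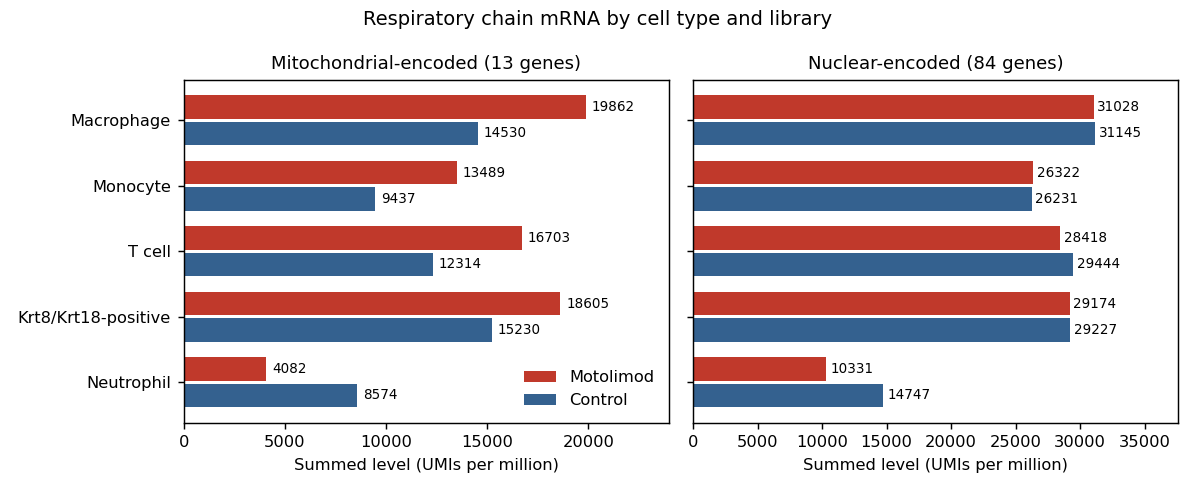
Summed level of the mitochondrial-encoded (left) and nuclear (right) respiratory chain genes, in CPM, in 5 gated cell types, with motolimod above control; each bar is 1 library. The mitochondrial-encoded sum is longer for motolimod in every type but neutrophils, where it is 4082 against 8574.

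The share of respiratory chain UMIs that came from the mitochondrial genome follows from the same sums and ran the same way over all cells of a type. In macrophages this depended on depth: in the 3 shallowest bins of UMIs per cell the share was 38.4% in motolimod and 39.6% in control tumours. Over all cells the shares were as follows. It was 39.0% in motolimod and 31.8% in control macrophages, 33.9% and 26.5% in monocytes, 37.0% and 29.5% in T cells, and 28.3% and 36.8% in neutrophils. Krt8/Krt18-positive cells, with 64 motolimod cells, had 38.9% and 34.3%. The smaller types are given as levels only. Their mitochondrial-encoded sums were 15814 and 13267 CPM in NK cells (81 and 23 cells), 11841 and 10034 in conventional dendritic cells (43 and 108), and 8788 and 8108 in migratory dendritic cells (34 and 114). In each library neutrophils had the lowest mitochondrial-encoded sum of the 4 compared types and macrophages the highest.

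Within the mitochondrial genome, the complex I genes as a sum had the highest ratio in macrophages, monocytes and T cells. Not every complex I gene did: in macrophages mt-Nd5 (1.43) was below mt-Co3 (1.47) and mt-Cytb (1.44). The complex I sum was 3215 CPM in motolimod and 1927 in control macrophages (ratio 1.67), 2140 and 1185 in monocytes (1.81), and 2633 and 1747 in T cells (1.51). mt-Cytb, the complex III subunit that carries electrons between its quinone sites, was at 1869 and 1295 in macrophages (1.44). The complex IV genes summed to 11484 and 8789 (1.31) and the complex V genes to 3293 and 2519 (1.31). Each of the 13 genes had a ratio above 1 in all 3 types. At least 1.5-fold higher were 6 of 13 in macrophages, 8 in monocytes and 3 in T cells, and none was 1.5-fold lower. Over all genes with at least 100 UMIs, 9.74%, 11.4% and 10.5% were at least 1.5-fold higher in these types.

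Among the mitochondrial-encoded genes, mt-Nd3, a small membrane subunit of complex I, had the highest ratio in all 3 types. It was at 87.6 CPM in motolimod and 34.9 in control macrophages (2.51), 53.3 and 21.6 in monocytes (2.47), and 70.0 and 34.6 in T cells (2.03). In cells thinned to 1000 UMIs each, an mt-Nd3 UMI was found in 8.10% of motolimod and 3.84% of control macrophages, against 39.5% and 36.6% unthinned. mt-Nd1, mt-Nd2 and mt-Nd4, core membrane subunits, had ratios of 1.79, 1.68 and 1.68 in macrophages. mt-Nd4l, whose end overlaps mt-Nd4 as shown above, was the most abundant complex I gene, at 959 and 593 (1.62). mt-Nd5, a proton-pumping subunit, was at 326 and 228 (1.43). mt-Nd6, which is read from the other strand, was at 25.6 and 15.5 (1.65).

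mt-Co1, mt-Co2 and mt-Co3 form the core of complex IV. mt-Co1 was at 5534 CPM in motolimod and 4187 in control macrophages (1.32), and mt-Co2, which binds cytochrome c, at 4025 and 3296 (1.22). mt-Co3 was at 1924 and 1307 (1.47). Of complex V, mt-Atp6, the proton channel subunit, was at 2837 and 2115 (1.34). mt-Atp8, which shares 43 bases with mt-Atp6, had the lowest ratio in macrophages (457 and 404; 1.13) and in monocytes (1.18), and mt-Co2 had the lowest in T cells (1.21). The order of the ratios was thus not the order of abundance, and levels of genes of unlike length are not compared further.

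**Figure D2:**
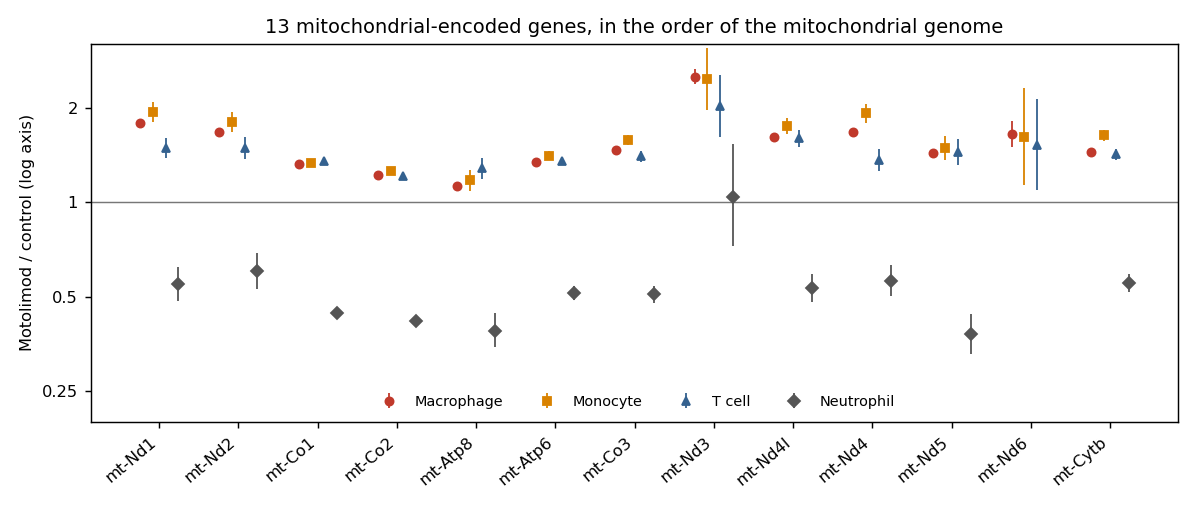
Ratio of motolimod to control (log axis) for each mitochondrial-encoded gene in 4 cell types, in genome order; bars are 95% intervals for counting error, and genes under 100 UMIs are left out. Macrophages, monocytes and T cells lie above 1 for all 13 genes, and neutrophils lie below 1 for 11 of 12.

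The macrophage difference depended on cell depth. Cells of both libraries were put in 10 equal bins of UMIs per cell. The ratio was 0.763, 0.929 and 0.999 in the 3 shallowest bins and between 1.20 and 1.52 in the other 7. The 3 shallowest bins, under 6373 UMIs per cell, held 48.6% of motolimod and 13.1% of control macrophages. Chosen after seeing this, those cells alone gave 18294 and 19522 CPM (ratio 0.937), with 4 of 13 genes above 1 and 2 of 78 nuclear genes higher and 1 lower (9.63% and 6.88% of all genes). The other cells gave 20215 and 14394 (1.40), with 13 of 13 above 1 and 3 of 81 nuclear genes higher and 3 lower (7.27% and 4.55% of all genes). The ratio was above 1 in 10 of 10 bins of T cells and 9 of 10 of monocytes. With each cell thinned to 1000 UMIs, the macrophage ratio was 1.24. The genes of the macrophage gate (C1qa, C1qb, C1qc, Ms4a7 and Adgre1) summed to 10394 and 13778 CPM in macrophages. The nuclear RNA Malat1, at 2749 and 2295, and cytosolic ribosomal protein genes, with a ratio of 0.864, also differed between the libraries there. Malat1 was at 3231 and 1920 in T cells and at 3759 and 3774 in monocytes. The part of these values in the result was not tested.

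The difference had the same direction in each macrophage subset gated by markers. These gates overlap, so the subsets are not separate sets of cells. The ratio of the mitochondrial-encoded sum was lowest in Cbr2 Tppp3 macrophages (18817 in motolimod and 16633 in control tumours; 1.13) and highest in Vcam1 Cd72 macrophages (23513 and 14970.4; 1.57) and cycling macrophages (23004 and 14813; 1.55). It was 1.32 in Gpnmb Cd36 Fabp5 macrophages, 1.35 in Mmp12 macrophages, 1.40 in Lyve1 Cd209 macrophages (44 and 164 cells) and 1.45 in Ass1 macrophages. The nuclear sum had ratios between 0.970 and 1.04 in the same subsets. Depth differed between subsets and libraries. Median UMIs per cell in motolimod and control tumours were 5670 and 9961 in Cbr2 Tppp3 macrophages and 4880.5 and 5795.5 in Lyve1 Cd209 macrophages. They were 6615 and 19601 in Gpnmb Cd36 Fabp5, 16596 and 19900 in Vcam1 Cd72, and 19358 and 22748 in cycling macrophages. Mmp12 macrophages had 12212 and 17175, and Ass1 macrophages 10416 and 15079. Subset sizes differed as well. Vcam1 Cd72 cells were 9.94% of motolimod and 33.8% of control macrophages, cycling cells 9.11% and 24.1%, and Cbr2 Tppp3 cells 16.2% and 4.51%. The part of depth or subset size in these ratios and their order was not tested. Among T cells the mitochondrial-encoded ratio was 1.38 in CD8 T cells, 1.16 in CD4 T cells (45 and 36 cells), and 1.48 in cycling T cells (50 and 92 cells).

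Most nuclear genes were within 1.5-fold in these 3 types. In macrophages 3 of 81 tested were at least 1.5-fold higher, against 9.74% of all 11278 genes tested, and 4 were at least 1.5-fold lower, against 6.8%. In monocytes 3 of 78 were higher and 2 lower, where all genes gave 11.4% and 6.03%. In T cells 1 of 76 was higher and 0 lower, where all genes gave 10.5% and 6.29%. The median log2 ratio of the nuclear genes was -0.03, -0.02 and -0.10 in macrophages, monocytes and T cells, beside 0.04, 0.03 and 0.06 over all genes tested.

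**Figure D3:**
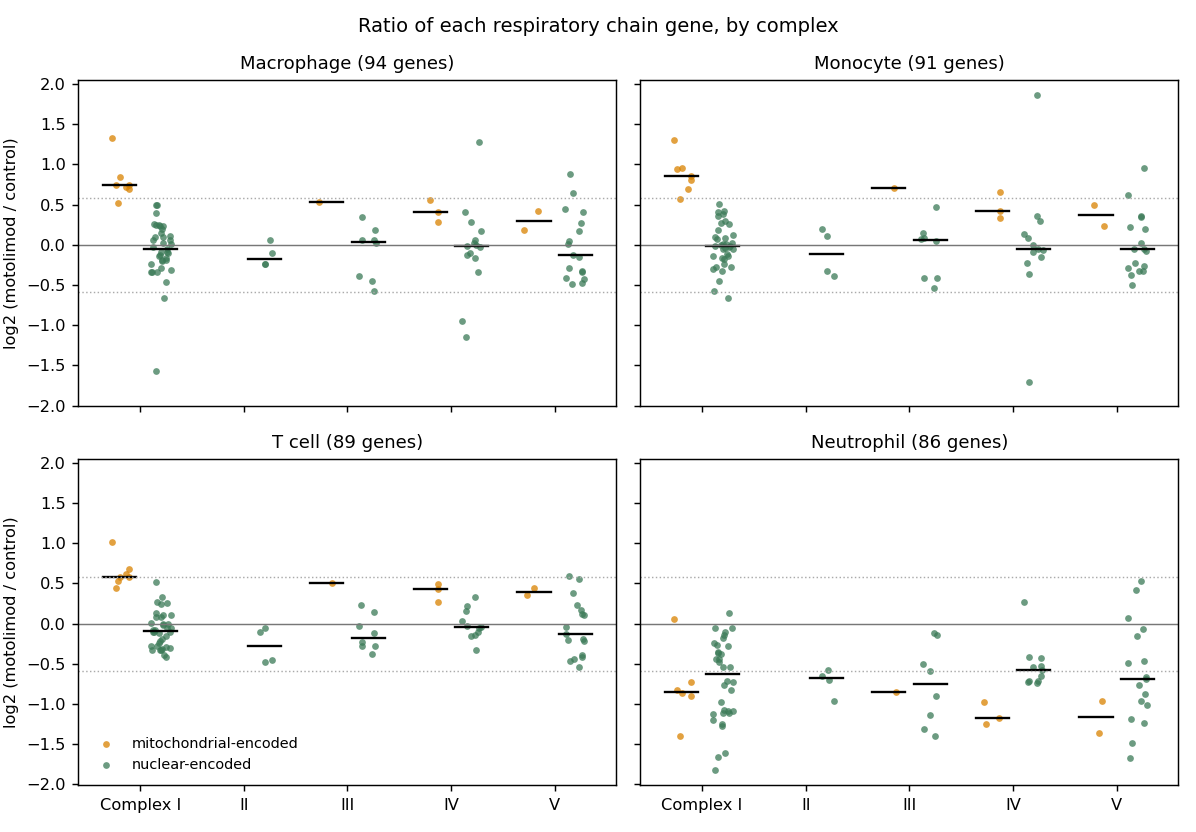
log2 ratio of motolimod to control for every respiratory chain gene with at least 100 UMIs over both libraries, by complex and genome, in 4 cell types; black bars are medians and dotted lines mark 1.5-fold. Mitochondrial-encoded genes sit above nuclear genes in 3 types, while in neutrophils both sit mostly below 0.

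By symbol alone, which places Ndufa4 and Ndufa4l2 here, complex I has 37 nuclear genes, of which Ndufa7, an accessory subunit, had the most UMIs. Their sum was 9027 CPM in motolimod and 8853 in control macrophages (ratio 1.02). Ndufv1, the flavoprotein subunit that oxidises NADH, was at 68.1 and 107 in macrophages (0.634), at 50.1 and 74.6 in monocytes (0.673) and at 74.1 and 93.0 in T cells (0.797). The core iron-sulfur subunits Ndufs3 and Ndufs8 were also lower in macrophages, at 125 and 158 (0.789) and at 123 and 156 (0.788), but within 1.5-fold. The accessory subunits Ndufa3 and Ndufc1 were on the other side, at 464 and 331 (1.40) and at 372 and 264 (1.41). In monocytes Ndufa9, an accessory subunit of the matrix arm, was at 29.4 and 46.4 (0.633). The sum was thus made of genes on both sides of 1.

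Complex II, succinate dehydrogenase, had the lowest ratio of the nuclear complexes in each of the 4 types. Its 4 genes summed to 559 CPM in motolimod and 631 in control macrophages (0.887, 0.872 to 0.903), 430 and 501 in monocytes (0.859), and 405 and 515 in T cells (0.786). Sdhb, the iron-sulfur subunit and the most abundant, was at 245 and 290.5 in macrophages (0.844), and at 192 and 261 in T cells (0.734). The membrane anchor Sdhd was at 125 and 148 in macrophages (0.844). The flavoprotein Sdha was at 103 and 99.3 (1.04). None of the 4 passed 1.5-fold in these 3 types.

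Complex III nuclear genes summed to 2826 CPM in motolimod and 2759 in control macrophages (1.02). Uqcrq, a small subunit with the most UMIs of the complex, was at 646 and 621 (1.04). The core proteins Uqcrc1 and Uqcrc2 were at 142 and 211 (0.672) and at 63.0 and 86.3 (0.730), and the Rieske iron-sulfur protein Uqcrfs1 at 168 and 220 (0.763). The small subunit Uqcr11 was at 529 and 416 (1.27).

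Complex IV nuclear genes summed to 8494 CPM in motolimod and 8619 in control macrophages (0.985), and complex V genes to 10122 and 10284 (0.984). Cox8a, the most abundant nuclear complex IV gene, was at 1525 and 1640 (0.930), and Atp5e, the epsilon subunit of complex V, at 1589 and 1202 (1.32). The catalytic beta subunit Atp5b was at 368 and 490 in macrophages (0.750) and at 362 and 527 in T cells (0.686). Atp5k, a small membrane subunit linked to dimers of the enzyme, was at 255 and 138 in macrophages (1.85), at 225 and 116 in monocytes (1.95), and at 207 and 141 in T cells (1.47). Atp5mpl, another small membrane protein of complex V, was at 570 and 366, at 487 and 317, and at 419 and 278 in the same types (1.56, 1.54 and 1.51). In T cells the next highest ratio was that of Ndufa3 (1.44), and the lowest were Atp5b (0.686), Sdhd (0.717) and Atp5g1 (0.727), which encodes a copy of the membrane c subunit.

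Nuclear genes with longer transcripts tended to have lower ratios. Across the 81 tested genes in macrophages the Spearman correlation of log2 ratio with median transcript length in GENCODE M21 was -0.57, while over all 10743 genes with a length it was 0.27. It was -0.57 and 0.26 in monocytes, -0.48 and 0.27 in T cells, and -0.33 and 0.18 in neutrophils. In macrophages the 31 nuclear genes with a median transcript of at most 600 bases had a median log2 ratio of 0.06 and the 50 longer ones -0.18. Over all genes with a length, those medians were 0.05 and 0.04. The length is a median over all protein-coding transcripts of a gene, so some genes with a long transcript count as short. Uqcrc1 and Atp5md have medians of 533 and 362 bases, but their longest transcripts hold 1623 and 2703 words of 31 bases. These are descriptions across genes that share both libraries, and genes are not independent replicates. Atp5k (321.5 bases), Atp5mpl (435) and Cox7a1 (439) are among the shortest, and Ndufv1 (1436) and Atp5b (1916) among the longest of those named. Long genes were not all lower: in macrophages Sdha (1811 bases) had a ratio of 1.04 and Ndufb2 (2413) of 1.19.

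Some subunits exist as paired isoforms with tissue-restricted partners. Cox4i2, the alternative of Cox4i1 known for induction by low oxygen, made up 2.44% of the pair in motolimod and 4.11% in control macrophages, at 31.6 and 60.8 CPM (0.520). In monocytes Cox4i2 was at 7.59 and 24.8 (0.306), 0.674% and 1.95% of the pair. T cells had 3.03 and 12.9 CPM of Cox4i2 (9 and 48 UMIs), so part of the macrophage level may be free RNA, which was not tested. In thinned macrophages a Cox4i2 UMI was found in 2.09% of motolimod and 5.12% of control cells. Unthinned, those shares were 11.2% and 31.8% in macrophages and 1.12% and 4.03% in T cells.

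Cox7a1, the isoform of Cox7a2 known from heart and skeletal muscle, differed in the opposite direction. It was at 21.4 CPM in motolimod and 8.78 in control macrophages (2.43, from 674 and 587 UMIs), or 2.92% and 1.34% of the Cox7a set. In monocytes it was at 16.6 and 4.54 (3.65, from 83 and 24 UMIs), and in T cells at 4.38 and 3.48. In thinned macrophages 2.96% and 0.984% of cells had a Cox7a1 UMI. Ndufa4l2, the alternative of Ndufa4 known as a hypoxia-induced gene, was rare in macrophages, at 1.11 and 3.31 CPM (0.336, from 35 and 221 UMIs), and at 6.72 and 19.3 in Krt8/Krt18-positive cells.

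The largest isoform shares were in cell types too small to compare. Cox6a2, a muscle isoform of Cox6a1, made up 76.0% of the pair in 4 motolimod and 71.8% in 10 control plasmacytoid dendritic cells, with exact intervals of 61.8 to 86.9% and 63.0 to 79.5%. Its level there was 998 and 1048 CPM, against 2.76 and 6.10 in macrophages and 0.151 and 0.555 in neutrophils. Ndufa4l2 made up 37.4% of its pair in 15 motolimod and 47.8% in 12 control fibroblasts, at 187 and 260.4 CPM, and in endothelial cells 4 motolimod cells held 0 of its 24 pair UMIs, while 9 control cells had 107 CPM. Cox4i2 had the highest share of its level in 1 type among genes with more than 1 UMI, 54.2% in macrophages over the types with at least 50 cells. Of the 3 genes for the complex V c subunit, which encode the same mature protein, Atp5g1 took 25.1% and 24.2% in macrophages, 17.3% and 17.8% in T cells, and 15.6% and 15.4% in Krt8/Krt18-positive cells, where Atp5g2 took 43.6% and 47.2%.

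**Figure D4:**
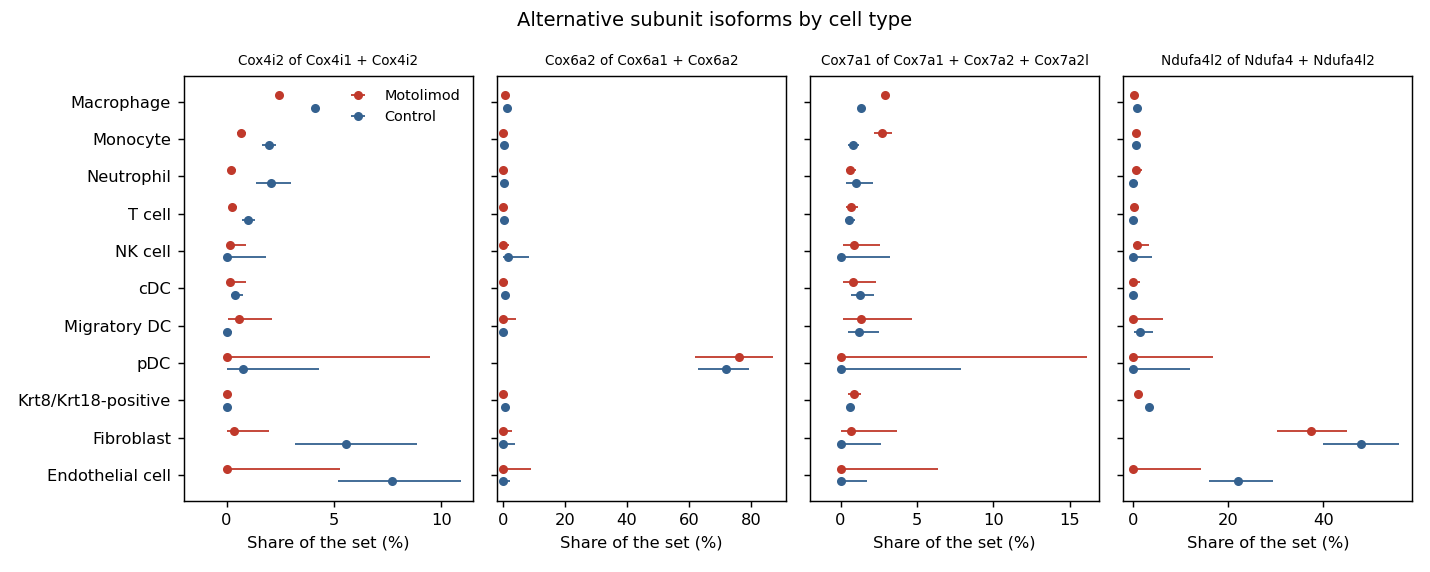
Share of its isoform set taken by Cox4i2, Cox6a2, Cox7a1 and Ndufa4l2 in each cell type, motolimod above control; bars are exact 95% intervals for counting error. Cox6a2 is the major form only in plasmacytoid dendritic cells (76.0% and 71.8%), among the types plotted.

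Neutrophils were lower in nearly every respiratory chain gene when UMIs were summed. Of 74 nuclear genes tested, 40 were at least 1.5-fold lower and 0 higher, where all 5329 genes tested gave 20.2% and 15.8%. Of 12 mitochondrial-encoded genes tested, 11 were lower. mt-Nd5 had the lowest ratio, at 64.7 CPM in motolimod and 170 in control neutrophils (0.381), and mt-Nd3 the highest, at 22.0 and 21.1 (1.04). mt-Co1 was at 1167 and 2634 (0.443) and mt-Atp6 at 613 and 1191 (0.515). The lowest nuclear ratios were those of Ndufa5 (15.4 and 54.4; 0.283), Atp5g3 (125 and 396; 0.315) and Ndufc2 (32.6 and 103; 0.317), and the highest those of Atp5mpl (230.1 and 159; 1.45), Atp5k (72.9 and 54.4; 1.34) and Cox7a2 (312 and 258; 1.21).

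The mitochondrial and the nuclear part of that result behaved differently with depth. The mitochondrial-encoded ratio was below 1 in 10 of 10 bins of UMIs per cell, between 0.310 and 0.790. The nuclear ratio was above 1 in 8 of 10 bins and lowest, at 0.708, in the deepest. That bin, from 4421 UMIs per cell, held 217 motolimod cells (8.24%) and 101 control cells (19.0%), with nuclear sums of 15075 and 21284 CPM and cytosolic ribosomal protein sums of 77002 and 101153. In it 0 of 72 nuclear genes were higher and 32 lower, where all genes gave 11% and 17.2%. Its neutrophil gate genes summed to 50019 and 32003 CPM, its monocyte gate genes to 2010 and 2897, and its neutrophil granule genes (Camp, Ngp, Ltf, Mpo and Elane) to 591 and 17.2, and their part in the result was not tested. Without it, in an alternative added after seeing the data, the nuclear sum was 8869 in motolimod and 7737 in control neutrophils (1.146), with 14 of 67 genes higher and 3 lower, where all genes gave 31.6% and 11.4%. The median log2 ratio was 0.28 for these nuclear genes and 0.24 over all genes tested in the same cells. The mitochondrial-encoded sum was then 2984 and 7396 (0.404), with 11 of 12 genes lower.

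Per cell the same difference appears. The median mitochondrial share of a neutrophil was 0.104% in motolimod and 0.391% in control tumours, and the median nuclear respiratory chain share 0.807% and 0.787%. In neutrophils thinned to 1000 UMIs, 37.5% of motolimod and 13.3% of control cells had no mitochondrial-encoded respiratory chain UMI (938 of 2503 and 66 of 495), against 22.5% and 6.95% unthinned. In thinned macrophages those shares were 1.58% and 0.656%. Neutrophils inside a gate on Ccl3 and Ccl4, 83.9% of motolimod and 59.0% of control neutrophils, had mitochondrial-encoded sums of 3756 and 8663 (0.434), and those outside it 5967 and 8447 (0.706). Malat1 was at 8032 and 6806 CPM in neutrophils, and its part in the result was not tested.

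**Figure D5:**
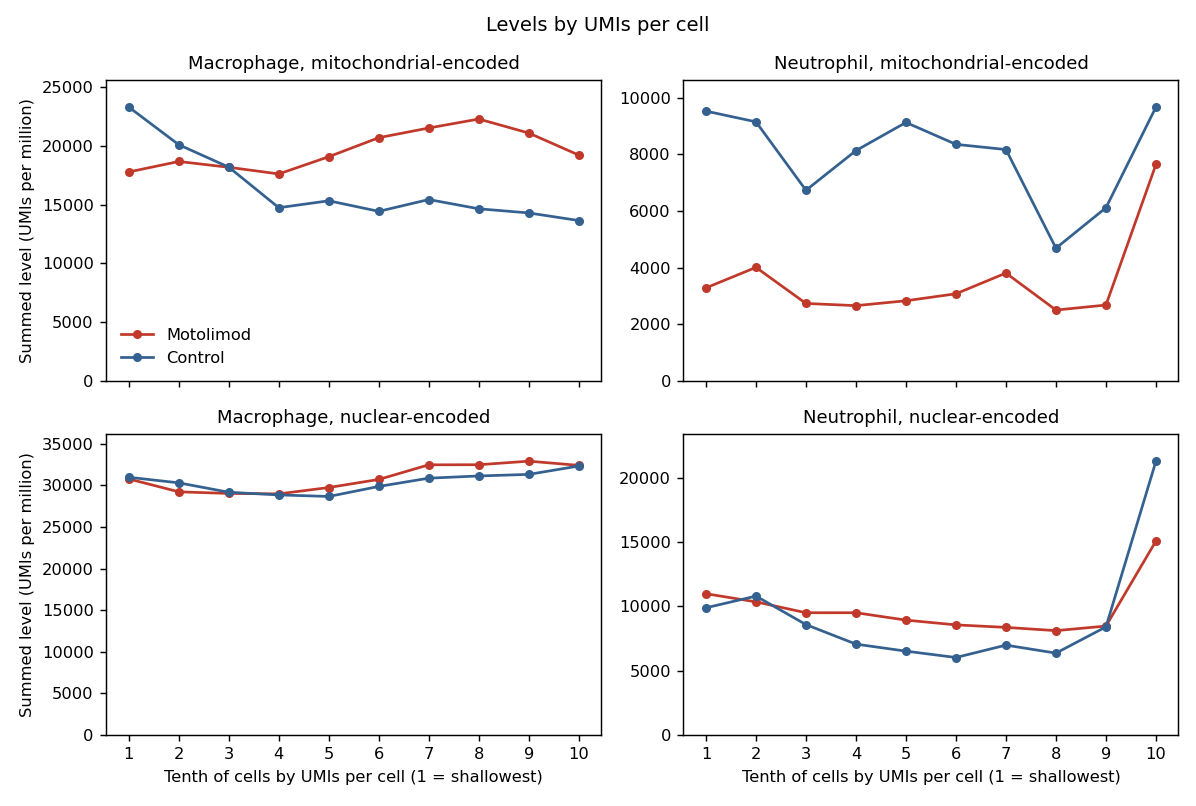
Summed mitochondrial-encoded (top) and nuclear (bottom) levels, in CPM, of macrophages (left) and neutrophils (right) in 10 depth bins, each an equal part of the cells. In macrophages the motolimod line is above control from the fourth bin, and in neutrophils it is below control in every bin for mitochondrial genes but for nuclear genes in only 2 bins.

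Other genes of the pathway are given for macrophages, where 9.74% of all genes tested were higher and 6.8% lower with a median log2 ratio of 0.04, and then for neutrophils. In macrophages, of 50 assembly factors tested, 2 were at least 1.5-fold higher (Pet100 at 122 and 54.5 CPM, 2.24; Cox20 at 95.8 and 52.2, 1.83, both complex IV factors) and 3 lower, among them Ecsit (0.542), a complex I assembly factor, and Taco1 (0.523), a translational activator of mt-Co1. Of 22 genes that copy and express the mitochondrial genome, 1 was higher (Polg, its DNA polymerase, 1.51) and 1 lower (Tfb1m, an rRNA methyltransferase, 0.622), while Tfb2m, a transcription factor of that genome, was at 8.09 and 6.49 and Tufm, its translation elongation factor, at 45.9 and 63.1 (0.728). The median log2 ratio of this list was -0.18.

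Of 18 citric acid cycle genes in macrophages, 0 were higher and 2 lower, with a median log2 ratio of -0.22, beside the same 9.74%, 6.8% and 0.04 over all genes. The lower ones were Idh3a, of isocitrate dehydrogenase, at 35.5 and 56.1 (0.633) and Fh1, fumarase, at 39.5 and 62.3 (0.634). Of 14 electron carriers and transport genes, 0 were higher and 2 lower, with Vdac2, an outer membrane channel, at 248 and 389 (0.638) and Slc25a5, an ADP/ATP carrier, at 453 and 680.5 (0.665). Of 78 mitochondrial ribosomal protein genes, 0 were higher and 3 lower, with a median of -0.27, beside -0.26 for 89 cytosolic ribosomal protein genes, of which 4 were higher and 5 lower. Among 11 nuclear regulators tested 1 was lower, Myc, at 22.2 and 40.3 (0.550), and Tfe3 (1.48) and Hif1a (1.33) had the highest ratios.

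In neutrophils, where 15.8% of all genes tested were higher and 20.2% lower with a median log2 ratio of -0.05, 0 of 11 citric acid cycle genes were higher and 8 lower (median -0.79). Of 11 electron carriers and transport genes, 0 were higher and 8 lower (median -0.66). Of 49 mitochondrial ribosomal protein genes 1 was higher and 17 lower (median -0.46), and of 85 cytosolic ones 1 was higher and 49 lower (median -0.69). Of 21 assembly factors 2 were higher and 4 lower (median -0.21), of 4 expression machinery genes 1 was higher and 0 lower (median 0.19), and of 8 regulators 1 was higher and 0 lower (median 0.24). These counts are over all neutrophils, the deepest bin included.

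Over the 13 combinations of cell type and library with at least 50 cells, the genes outside the list whose level most resembled the nuclear sum were Hprt (Spearman 0.96), Mrps14 (0.96), Naa38 (0.93), Sf3b5 (0.92) and Mrps33 (0.92), of 2705 compared. The points share 2 libraries and their depth, and no p is given.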

How the data were processed

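The authors deposited unnormalized counts of UMIs for each gene in each barcode. The submitters' processing notes give Cell Ranger 5.0.1 and mm10, whereas the matrices carry version 7.1.0 (per the file headers). Whether intron reads were counted is not given in the sources used here. The members and lists, and the gates, were chosen with earlier results of these data known. Groups follow the labels (motolimod and control, 1 library each).

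UMIs were summed per gated type and library and scaled to CPM, with exact Poisson intervals. Ratios have exact conditional binomial intervals, and shares exact Clopper-Pearson intervals. All are 95% and cover counting error only. A gene was tested against a fold of 1.5 with at least 100 UMIs over both libraries, with no p-value. A gate needed at least 2 marker genes and a minimum of marker UMIs per 10000. Doublets were treated only by setting aside mixed-lineage droplets, with no caller run. Named genes are the mitochondrial-encoded genes, the isoform sets, the most abundant nuclear gene of each complex, the 3 highest and 3 lowest ratios per type, and up to 2 at each end of the other lists in macrophages; others were named after their values were seen. Python 3.11.15, numpy 2.4.6, scipy 1.17.1, pandas 2.3.3 and matplotlib 3.10.9 were used.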

Additional observations from a re-analysis of the deposited data

Results flagged for a closer look

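The ratio of the mitochondrial-encoded sum was 0.476 in neutrophils, on the other side of 1 from macrophages (1.37), monocytes (1.43) and T cells (1.36). It stands out because the same contrast ran in opposite directions in these cell types, with 1 library per group. The macrophage ratio was 0.937 in the 3 shallowest depth bins. The difference between types was not tested.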

How the results depend on the processing

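No paired analysis was possible because each group has 1 library, and leaving out a library was likewise not possible. All values here are motolimod over control ratios or counts of nuclear genes. The direction of the mitochondrial-encoded ratio was kept in every alternative but 1, with values of 1.27 to 1.38 in T cells, 1.38 to 1.48 in monocytes and 0.325 to 0.630 in neutrophils. In macrophages it was 0.937 in the 3 shallowest bins of UMIs alone and 1.40 in the other 7, an alternative chosen after seeing the data.

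The macrophage mitochondrial-encoded ratio was 1.38 with at most 5% mitochondrial UMIs, 1.39 with the stricter cell filter (1000 genes, 2000 UMIs), 1.38 with a stricter gate, 1.35 without the highest 5% of UMIs, 1.37 over nuclear genes only, 1.33 with median-of-ratios scaling, 1.24 as a mean over cells, 1.24 thinned and 1.41 at the control mix of UMIs per cell. Monocytes gave 1.48 for both filters, 1.38 with the stricter gate, 1.39 without the highest 5%, 1.40 with median-of-ratios scaling, 1.47 as a mean over cells, 1.41 at the control mix and with no mitochondrial limit, and 1.46 with mixed droplets kept. T cells gave 1.32 for both filters, 1.33 without the highest 5%, 1.304 with median-of-ratios scaling, 1.31 as a mean over cells, thinned and at the control mix, 1.27 with no mitochondrial limit and 1.38 with mixed droplets. Neutrophils gave 0.434 with at most 5% mitochondrial UMIs, 0.579 with the stricter cell filter, 0.519 with the stricter gate, 0.397 without the highest 5% of UMIs, 0.492 with median-of-ratios scaling, 0.413 as a mean over cells, 0.416 thinned, 0.630 at the control mix, 0.325 with no limit, 0.541 with mixed droplets and 0.404 without the deepest bin.

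The nuclear ratio lay near 1 and crossed it. In macrophages it was 0.991 without the highest 5%, 1.00 over nuclear genes only, 0.967 with median-of-ratios scaling, 0.987 as a mean over cells, 0.988 thinned, 1.03 at the control mix, 0.986 in the shallowest bins and 1.01 in the others. Monocytes gave 0.994, 0.984, 1.02 and 0.990 without the highest 5%, with median-of-ratios, as a mean and thinned. T cells gave 0.928, 0.976 and 0.975 with median-of-ratios, as a mean and thinned, and 1.01 at the control mix. Neutrophils gave 0.712 with no limit, 0.714 with the stricter filter, 0.748 with the stricter gate, 0.847 without the highest 5%, 0.724 with median-of-ratios, 0.954 as a mean, 0.958 thinned, 0.822 at the control mix and 1.146 without the deepest bin. The median log2 ratio of nuclear genes became 0.0069 in macrophages and 0.0021 in T cells at the control mix, and 0.28 in neutrophils without the deepest bin. In that neutrophil subset all genes tested gave 0.24. The causes were not tested.

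Counts of nuclear genes moved with the fold. With the smaller fold tried, 10 were higher and 18 lower in macrophages, 12 and 15 in monocytes, and 6 and 14 in T cells, and 2 were higher in neutrophils. Over all genes tested, 2773 of 11278 were higher and 2083 lower at that fold in macrophages, and 1756 and 1285 of 7082 in monocytes. T cells had 1643 and 1112 of 6473, and neutrophils 1448 and 1747 of 5329. At 2-fold, macrophages had 1 and 2, monocytes 1 and 1, T cells 0 higher and neutrophils 20 lower. No share over all genes is given at 2-fold or for the settings below, apart from the depth subsets described above. These counts therefore show how the calls moved and cannot be read as a result about these genes. Lower genes numbered 7 in macrophages as a mean over cells, 2 at the control mix and 1 in the shallowest bins, and in monocytes 1 with the stricter gate and 5 as a mean and thinned. T cells had 0 higher with the stricter filter or median-of-ratios, 2 with mixed droplets, as a mean, at the control mix or with no minimum, and 3 thinned. They had 1 lower without the highest 5%, with median-of-ratios or with a minimum of 20 UMIs, and 3 thinned or with no minimum. Neutrophils had 2 higher and 21 lower without the highest 5%, 5 and 12 as a mean, 3 and 10 thinned, 2 and 24 at the control mix, 1 higher with no minimum, and 14 and 3 without the deepest bin.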
